A study of Mus musculus with 33 samples.

Results

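Retinoic acid drives P19 cells, a mouse embryonal carcinoma line, towards neurons, and the comparison described here covers the second stretch of that course, day 6 against day 3. The D6RA group held 3 RNA libraries of P19 cells at day 6 of differentiation with 1 µM all-trans retinoic acid (RA), and the D3RA group held 3 libraries at day 3 of the same treatment. In both, cells formed embryoid bodies, floating cell aggregates, for 2 days and were then moved to flasks and maintenance medium. Whether RA was still present in that medium is not stated here, so a fall by day 6 is not described as one under continued RA. These are 6 of the 33 samples of the series, and they were taken by the group and day in the sample titles. The same fit held 3 libraries each of cells given 1% DMSO in place of RA at day 6 (D6DMSO) and at day 3 (D3DMSO), and 3 of undifferentiated cells (D0). All 14706 genes of the table outside the mitochondrial genome were tested, of 14717 listed. The labels name no sorting, so each library is read here as a mixed culture of 1 line, in which fewer cells of a type and less RNA per cell cannot be told apart.

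Neural precursors that stop dividing first lay down a neuronal cytoskeleton and send out an axon, and then assemble ion channels, synaptic vesicles and receptors. Retinoic acid acts through nuclear receptors that bind DNA, turns on Hox genes, which set position along the body axis, and induces the Cyp26 enzymes that degrade it. P19 cells given DMSO as aggregates are known to turn towards mesoderm and muscle. D6DMSO and D3DMSO therefore show the same days under another treatment, and are not an untreated control. Values below are CPM, here counts recovered from the deposited log2 values and scaled by the library constant of the deposited table, which is not the plain total of counts, and log2 changes are those of limma, called at a Benjamini-Hochberg adjusted p under 0.05 over all genes.

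The libraries differed in depth with the day. D6RA libraries held 38242453 to 49644316 counts and D3RA libraries 3549553 to 9823766 counts, and 1 count was worth 0.0313 to 0.041 CPM in D6RA and 0.0911 to 0.457 CPM in D3RA. Mitochondrial genes took 41.6% to 42.6% of counts in D6RA and none in D3RA, and D6DMSO had them too, at 49.8% to 55.8%. D3RA replicates 2 and 3 stood apart from replicate 1, with 39.5% and 45.7% of their remaining counts on genes treated here as ribosomal-RNA-like, against 1.97% in replicate 1 and at most 1.7% in D6RA. That class is a small set picked by hand, which includes Lars2. Library handling and day cannot be told apart here: depth and mitochondrial share moved with the day in both treatments. Spearman correlations were 0.997 to 0.999 within D6RA, 0.984 to 0.99 within D3RA and 0.904 to 0.909 between them.

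Of the 14706 genes, 5466 were called higher in D6RA than in D3RA, which is 37.2% of those tested, and 4716 were called lower, 32.1%. Counts of list members called between D6RA and D3RA below are to be read beside these shares. At least 2-fold changes were seen for 2514 of the higher and 1742 of the lower genes. The median log2 change over all genes was 0.06, and it was -0.06 after quantile normalization, under which the share of calls that were higher moved to 46.3% of the called genes, against 53.7%. The deposited values give a gene with 0 counts a lower value in a deep library than in a shallow one, so genes near 0 look lower in D6RA. All 9 genes with 0 counts in all 6 libraries were called lower, and none of them was called once the added count was made proportional to library size. A call is therefore described as kept only where it also stood, in the same direction, with that proportional added count and after all libraries were thinned to the smallest: 4301 higher and 3511 lower calls were kept. Counts called between D6DMSO and D3DMSO below are not limited to kept calls. The share of all genes called in that comparison is not given here, so those counts have no such share beside them.

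Genes known from mature neurons were among those that rose most, beginning with a panel of 4. Sez6 encodes a membrane protein of neuronal dendrites that takes part in synapse formation. It had 49.2, 53.5 and 54.8 CPM in the D6RA libraries, against 0.364, 0 and 0.457 CPM in the D3RA libraries. Every D6RA library lay far above every D3RA library, and 1 of the D3RA libraries held no count at all. The limma log2 change was 7.20 (SE 0.41, adjusted p = 3.13e-10). Pooled over each group, the D6RA libraries had a CPM 170 times that of the D3RA libraries, with an exact 95% interval of 72.9 to 525 that covers counting error only.

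Grin2b, the GluN2B subunit of the NMDA glutamate receptor, had 21.3, 22.4 and 22.3 CPM in D6RA, against 0.638, 0 and 0 CPM in D3RA. Only the deepest D3RA library held any count of it. Its log2 change was 6.22 (SE 0.68, limma adjusted p = 5.58e-07), and the pooled ratio was 50.9 (95% interval 24.7 to 127). Slc17a6, the vesicular transporter VGLUT2 that loads glutamate into synaptic vesicles, had 30.2, 36.8 and 28.2 CPM in D6RA, against 0.273, 0.977 and 0.457 CPM in D3RA. It was detected in all 6 libraries, and no D3RA library reached 1 CPM. Its log2 change was 5.65 (SE 0.67, limma adjusted p = 1.48e-06). Rbfox3, the splicing factor known as the neuronal nuclear antigen NeuN, had 16.7, 21.4 and 19.4 CPM in D6RA, against 1.28, 0.651 and 1.83 CPM in D3RA. The groups did not overlap, and the log2 change was 3.87 (SE 0.43, limma adjusted p = 6.14e-07). None of these 4 genes was called between D6DMSO and D3DMSO, where log2 changes ran from -0.34 to -0.18. In D0 cells Sez6, Grin2b, Slc17a6 and Rbfox3 averaged 3.95, 1.16, 1.01 and 1.43 CPM. These means were above those of D3RA and far below those of D6RA.

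**Figure D1:**
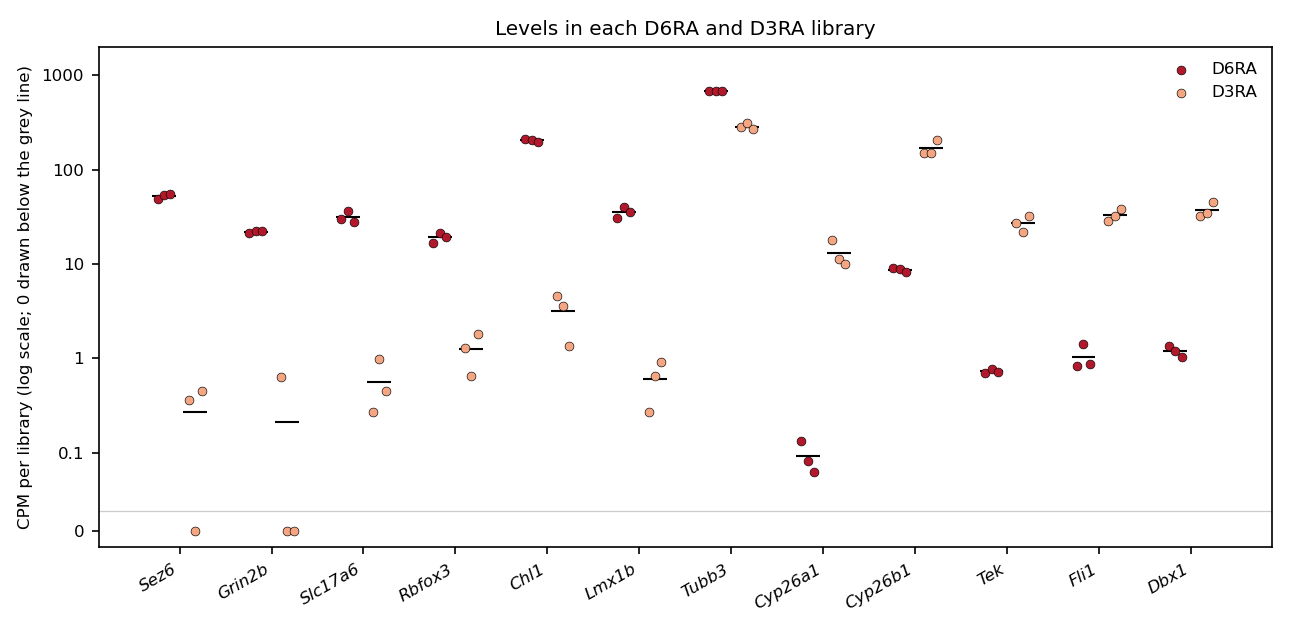
CPM in each D6RA (left of each pair) and D3RA library on a log axis, with 0 drawn below the grey line and a bar at each group's mean. The neuronal genes Sez6 to Tubb3 were higher in all D6RA libraries, and Cyp26a1, Cyp26b1, Tek, Fli1 and Dbx1 were lower in all of them.

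Other genes among those with the highest changes at 10 CPM or more were Trim66, Mab21l2, Chl1, Lmx1b, Tmem178b, Csmd1, Tmem130 and Tfap2a, with log2 changes of 4.68 to 6.99. Chl1 encodes a cell adhesion molecule of growing axons and averaged 204 ± 8.9 CPM in D6RA and 3.17 ± 1.6 CPM in D3RA (SD, n = 3 each). Trim66, a chromatin-associated factor, had 83.1, 75.5 and 80.7 CPM in D6RA, against 0.911, 0.977 and 0 CPM in D3RA. All 8 genes had groups that did not overlap, as the naming rule required. Over all genes, the D6RA libraries were all above the D3RA libraries for 41.2% and all below them for 32.5%.

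Most genes of the neuronal cytoskeleton rose. Of 21 measured, 17 were called higher and 2 lower, and 16 and 2 calls were kept. Their summed level was 9902 ± 298 CPM in D6RA and 3359 ± 263 CPM in D3RA (SD, n = 3 each), while D6DMSO and D3DMSO held 807 ± 75.6 and 826 ± 57.5 CPM. Mapt, the microtubule-binding protein tau, had 217, 209 and 203 CPM in D6RA, against 17.7, 13.4 and 18.3 CPM in D3RA. Dcx, doublecortin of migrating young neurons, had 887, 804 and 802 CPM in D6RA, against 83.3, 123 and 115 CPM in D3RA. Tubb3, a neuron-enriched tubulin, had 676, 679 and 677 CPM in D6RA, against 282, 310 and 268 CPM in D3RA. All 3 genes were well expressed by D3RA already, unlike Sez6 and Grin2b, and their log2 changes were 3.67, 2.97 and 1.24, each with a limma adjusted p of at most 1.05e-06.

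Gap43, a growth cone protein of extending axons, went the other way within that list. It had 62.7, 57.4 and 59.7 CPM in D6RA, against 139, 174 and 142 CPM in D3RA. Every D6RA library was below every D3RA library, and the log2 change was -1.33 (SE 0.15, limma adjusted p = 5.44e-07). Nefl, the light neurofilament subunit, was also called lower, at 108 ± 8.9 CPM in D6RA and 148 ± 17.4 CPM in D3RA (SD, n = 3 each). Its log2 change of -0.46 was -0.43 with replicate 1, the deepest, as the only D3RA library, where it was no longer called (limma adjusted p = 0.0694).

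Genes that release transmitter were called higher in 23 of 27 cases and lower in 1, with a median log2 change of 2.31, and all 23 higher calls were kept. Their summed level was 1107 ± 28.1 CPM in D6RA and 241 ± 14.3 CPM in D3RA (SD, n = 3 each). Sv2c, a synaptic vesicle glycoprotein, had 17, 16 and 16.4 CPM in D6RA, against 0.638, 0 and 2.28 CPM in D3RA. Rab3c, a small GTPase of synaptic vesicles, had 120, 105 and 106 CPM in D6RA, against 9.56, 12.1 and 7.76 CPM in D3RA. Bsn, the active zone scaffold bassoon, had 68.8, 78.1 and 76.1 CPM in D6RA, against 4.92, 5.86 and 10 CPM in D3RA. For all 3 the lowest D6RA library was several times the highest D3RA library, with log2 changes of 4.65, 3.49 and 3.46 (limma adjusted p of 3.82e-05, 2.75e-06 and 1.6e-07). Sncb, beta-synuclein, was the 1 gene of the list called lower, with a log2 change of -1.09 that was not kept. It was not called after thinning (limma adjusted p = 0.0697), nor without D6RA replicate 1, D6RA replicate 3 or D3RA replicate 2 (0.082, 0.053 and 0.0606).

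Voltage-gated channels, which carry the action potential, were called higher in 28 of 31 cases and lower in 2, with a median log2 change of 1.99. Of these calls, 25 and 1 were kept. Cacna2d2, an auxiliary calcium channel subunit, averaged 58.5 ± 5.8 CPM in D6RA and 3.68 ± 1 CPM in D3RA (SD, n = 3 each). Scn2a, a sodium channel of the axon, averaged 44.1 ± 2 CPM in D6RA and 3.31 ± 1.2 CPM in D3RA, and Kcnq3, a potassium channel subunit, averaged 10.6 ± 0.34 CPM in D6RA and 0.782 ± 0.28 CPM in D3RA. Their log2 changes were 3.98, 3.72 and 3.55. In undifferentiated D0 cells Kcnq3 averaged 9.1 CPM, near its D6RA level, while Cacna2d2 and Scn2a averaged 3.72 and 1.4 CPM.

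Among transmitter receptors 17 of 28 were called higher and 3 lower, and 14 and 2 were kept. Gria2, an AMPA receptor subunit, had 73.3, 71.6 and 70.8 CPM in D6RA, against 6.83, 3.91 and 5.48 CPM in D3RA. Grik3, a kainate receptor subunit, averaged 64.1 ± 1.5 CPM in D6RA and 2.53 ± 1.1 CPM in D3RA (SD, n = 3 each), and Chrna4, a nicotinic acetylcholine receptor subunit, averaged 144 ± 3.1 CPM in D6RA and 8.72 ± 0.78 CPM in D3RA. The calls thus included subunits for glutamate and for acetylcholine. In D0 cells Grik3 and Chrna4 averaged 20.6 and 10.3 CPM, above their D3RA means. Postsynaptic scaffold and synaptic adhesion genes were called higher in 16 of 22 cases and lower in 1. Of the higher calls 15 were kept, and the lower call, that of Camk2a, was not. Dlg2, a scaffold of the postsynaptic density, led after Sez6, at 32.9 ± 1.8 CPM in D6RA and 1.18 ± 0.2 CPM in D3RA.

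Genes that define the transmitter of a neuron moved in both directions. Of 11 measured, 6 were called higher and 2 lower, and all 8 calls were kept. Gad1, which makes GABA, had 44, 47.3 and 42.2 CPM in D6RA, against 2.55, 3.26 and 4.11 CPM in D3RA. Slc32a1, the vesicular transporter for GABA and glycine, averaged 16.1 ± 1.8 CPM in D6RA and 1.55 ± 0.96 CPM in D3RA (SD, n = 3 each). Slc6a5, the glycine transporter of glycinergic neurons, averaged 51.5 ± 1.6 CPM in D6RA and 2.65 ± 0.88 CPM in D3RA. With Slc17a6 these cover glutamate, GABA and glycine, and their log2 changes were 3.43 to 5.65. Ddc, the decarboxylase of monoamine synthesis, had 0.695, 0.615 and 0.282 CPM in D6RA, against 6.92, 6.19 and 5.48 CPM in D3RA, a log2 change of -3.63 (SE 0.29, limma adjusted p = 1.66e-08). Slc18a2, which loads monoamines into vesicles, was also called lower, with a log2 change of -1.09. Th, which makes the precursor of dopamine, had a log2 change of -0.65 and was not called.

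**Figure D2:**
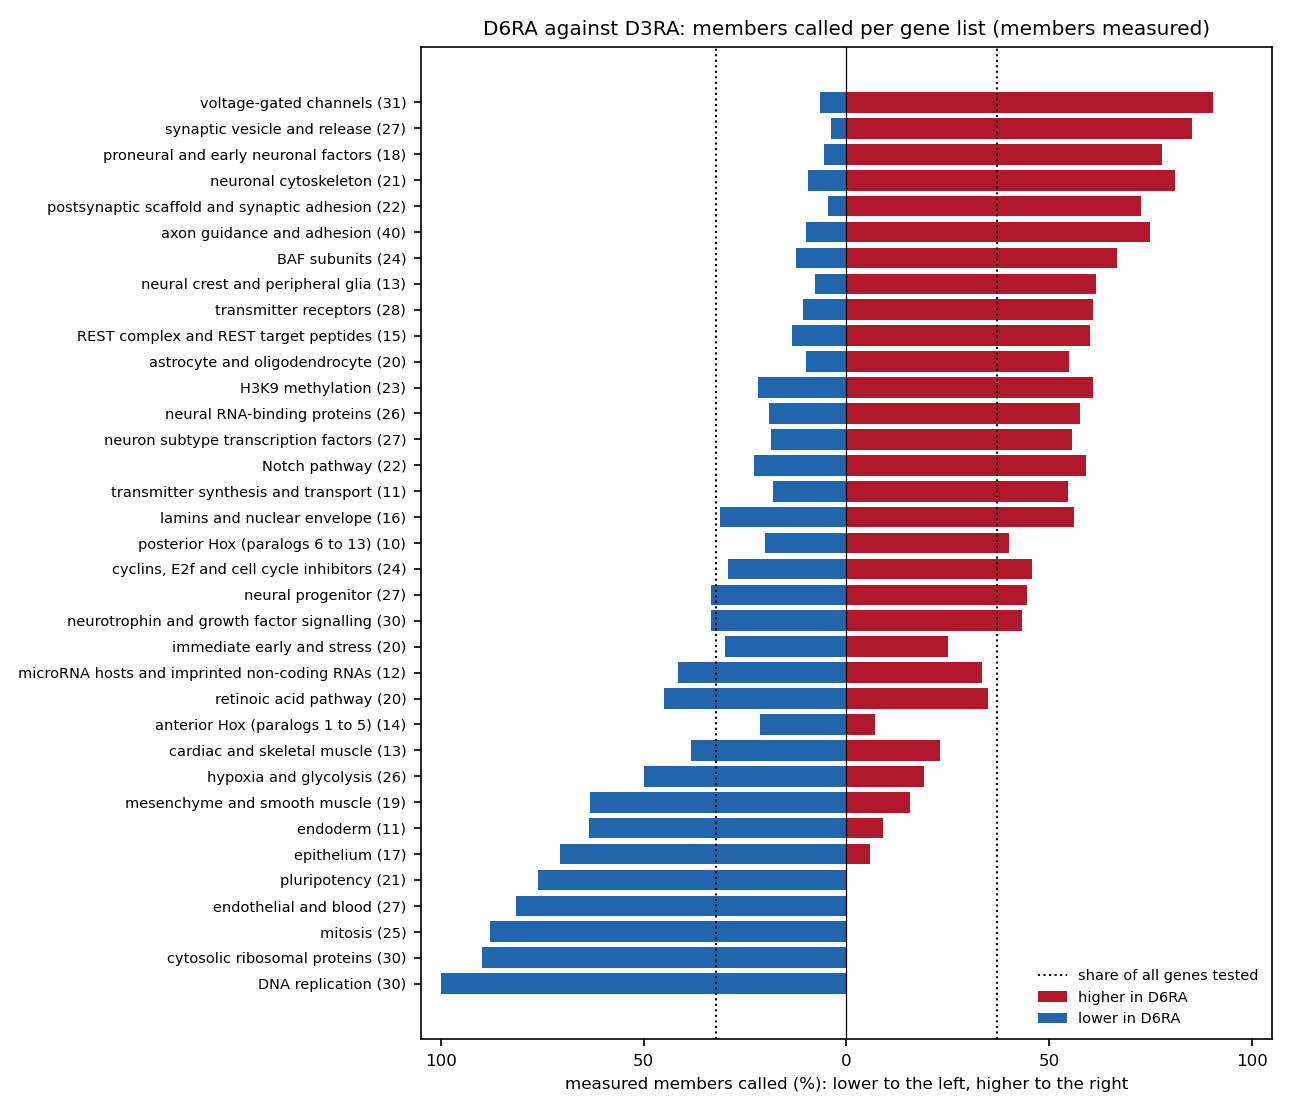
Share of each list's measured members called higher (to the right) or lower (to the left) in D6RA, with the number measured in brackets and dotted lines at the shares of all genes tested, 37.2% and 32.1%. Channel, synaptic and cytoskeletal lists stood furthest to the right, and DNA replication, ribosomal protein, mitosis and endothelial lists furthest to the left.

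The transcriptional repressor REST keeps neuronal genes off in other cells by binding the RE1 element, and Rest RNA was a little lower, at 71.5, 73.7 and 72.7 CPM in D6RA against 92.1, 78.2 and 104 CPM in D3RA (log2 change -0.32, SE 0.08, limma adjusted p = 0.00286). Its corepressor Rcor1 was higher, at 54.6 ± 0.93 CPM in D6RA and 35.9 ± 3 CPM in D3RA (SD, n = 3 each). An RE1-like match, the letters CAGCACC and GGACAG with 2 bases between them and at most 2 of 13 letters different, on either strand, was looked for in RefSeq promoters (GRCm38.p6, 250 bases before to 50 after the first start listed). It was in 2.15% of the 10355 promoters of tested genes. Of 107 genes called higher in the 6 cytoskeletal, vesicle, receptor, postsynaptic, transmitter and channel lists, 69 had a promoter in the table and 8 of these, 11.6%, held a match. No share was taken for members of these lists that were not called higher, so a link of the matches to the rise was not tested. The matches are shown because they are the letters behind that count, with capitals marking letters that match the element and lower case the spacer and the letters that do not:
Gad2: tAGCACCctGGACAG
Gria2: tAGCACCgcGGACAG
Slc17a6: CAGgACCacGGACAG
Syn1: CAGCACCgcGGtCAG
Kif1a: CAGCACCagGagCAG
Grik2: CAGCAgCggGGAaAG
Grin1: gAGaACCagGGACAG
Prph: CAGCAaCcaGGAgAG
The first 4 have 12 of 13 letters and the others 11, and Gria2 holds another match of 11 letters. The matches of Gria2, Slc17a6 and Grin1 lie on the strand opposite to the gene.

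Of these 8 genes, Gria2 and Slc17a6 are described above, and 4 others were called and kept. Gad2, a second GABA-making enzyme, had 59, 61.5 and 56.3 CPM in D6RA, against 8.2, 11.4 and 9.59 CPM in D3RA. Syn1, synapsin I on the vesicle surface, had 13.7, 13.4 and 13.3 CPM in D6RA, against 1.55, 2.61 and 4.11 CPM in D3RA. Kif1a, the motor that carries vesicle precursors along the axon, had 339, 331 and 336 CPM in D6RA, against 66.4, 61.6 and 77.2 CPM in D3RA. In all 3 the groups were far apart. Grik2, a kainate receptor subunit, averaged 36.5 ± 2.5 CPM in D6RA and 13.5 ± 0.71 CPM in D3RA (SD, n = 3 each). Grin1 and Prph were called but not kept, with limma adjusted p of 0.266 and 0.35 after thinning. The promoters of Slc17a6 (chr7:51621580-51621879, plus strand, the first of 2 starts listed) and Syn1 (chrX:20920869-20921168, minus strand) are given 5′ to 3′ on the gene's strand, with the match in capitals, because they hold it at opposite ends of the window:
Slc17a6: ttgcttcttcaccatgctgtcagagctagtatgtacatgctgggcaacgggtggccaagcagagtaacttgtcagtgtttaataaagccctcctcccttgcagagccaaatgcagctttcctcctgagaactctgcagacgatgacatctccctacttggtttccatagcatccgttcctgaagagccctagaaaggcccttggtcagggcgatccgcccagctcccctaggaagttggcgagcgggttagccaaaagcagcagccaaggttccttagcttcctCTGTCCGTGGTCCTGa
Syn1: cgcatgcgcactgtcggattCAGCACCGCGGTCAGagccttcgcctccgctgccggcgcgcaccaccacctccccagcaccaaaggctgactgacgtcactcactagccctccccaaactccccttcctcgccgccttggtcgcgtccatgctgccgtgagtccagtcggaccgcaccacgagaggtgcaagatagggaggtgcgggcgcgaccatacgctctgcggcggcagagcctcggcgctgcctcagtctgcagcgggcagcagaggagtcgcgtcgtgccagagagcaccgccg
Other letters searched on both strands gave shares of 8.7% for CAGATG and 18.8% for CAGCTG in the neuronal promoters, against 10.8% and 14.9% of all promoters. The shares were 24.6% for AGGAAG and 2.9% for CCGGAAG, against 31.8% and 17.7%, and neither of them contains the other. A match is a description of these letters and not a binding site.

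In a list of the REST complex and REST target peptides, 9 of 15 were called higher and 2 lower, and 7 and 2 were kept. Scg2, secretogranin II, averaged 8.81 ± 0.31 CPM in D6RA and 0.811 ± 0.74 CPM in D3RA (SD, n = 3 each). Celsr3, a cadherin needed for axon tracts, averaged 178 ± 14.3 CPM in D6RA and 25.6 ± 1.3 CPM in D3RA, and Chga, chromogranin A, averaged 18.2 ± 0.43 CPM in D6RA and 3.03 ± 0.37 CPM in D3RA. Bex1 was called lower with a log2 change of -0.47.

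Neural RNA-binding proteins moved in both directions. Of 26 measured, 15 were called higher and 5 lower, and all 20 calls were kept. Srrm4, the splicing regulator of neuronal microexons, had 105, 118 and 112 CPM in D6RA, against 9.38, 10.4 and 19.6 CPM in D3RA. Celf5, a splicing factor of the nervous system, averaged 28.6 ± 2.2 CPM in D6RA and 2.28 ± 0.92 CPM in D3RA (SD, n = 3 each), and the neuronal Hu protein Elavl3 averaged 220.0 ± 6.3 CPM in D6RA and 43 ± 2 CPM in D3RA. Igf2bp3, Ptbp1, Ptbp3, Lin28a and Lin28b were the 5 called lower. Lin28a and Lin28b encode proteins that block let-7 microRNAs in early cells. Lin28a had 14.3, 10.4 and 12.3 CPM in D6RA, against 55.7, 48.2 and 52.1 CPM in D3RA. Lin28b had 44.4, 42.5 and 45.5 CPM in D6RA, against 150, 156 and 145 CPM in D3RA. Their log2 changes were -2.09 and -1.77, with no overlap between groups. Ptbp1, the repressor of neuronal exons, was lower at 156 ± 3.6 CPM in D6RA and 270.0 ± 24.4 CPM in D3RA, and its neuronal paralog Ptbp2, at 369 ± 7.8 CPM in D6RA and 406 ± 15.2 CPM in D3RA, was not called (limma adjusted p = 0.0753).

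Proneural and early neuronal transcription factors were called higher in 14 of 18 cases and lower in 1. Neurog2, a basic helix-loop-helix factor that starts neurogenesis, had 18.5, 17.7 and 17.6 CPM in D6RA, against 3.37, 2.93 and 4.11 CPM in D3RA. The later factors Scrt2, Scrt1 and Myt1l, which hold down non-neuronal genes, had log2 changes of 3.64, 3.42 and 3.30. Neurog1 was the 1 member called lower, at 8.61, 7.25 and 7.58 CPM in D6RA against 20.8, 24.8 and 30.6 CPM in D3RA. Its log2 change of -1.69 (limma adjusted p = 0.0193) was not called without D6RA replicate 2, D6RA replicate 3 or D3RA replicate 3, at adjusted p of 0.0578, 0.0544 and 0.0637. Neurod1, a factor of neuronal differentiation, averaged 6.12 ± 0.42 CPM in D6RA and 11.5 ± 1.1 CPM in D3RA and was not called (limma adjusted p = 0.195).

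Transcription factors of neuron subtypes were called higher in 15 of 27 cases and lower in 5. Lmx1b, of serotonergic and dorsal horn neurons, had 30.9, 40.7 and 35.3 CPM in D6RA, against 0.273, 0.651 and 0.914 CPM in D3RA. Pax2, of spinal inhibitory interneurons, had 47, 55.6 and 52.5 CPM in D6RA, against 3.1, 2.61 and 5.94 CPM in D3RA. Lhx1, of several spinal interneuron classes, had 170.0, 173 and 162 CPM in D6RA, against 20.1, 30.9 and 24.2 CPM in D3RA. For these genes the lowest D6RA library was more than 5 times the highest D3RA library. Gata2, which is used by a spinal interneuron class and also by blood and endothelial cells, was lower at 2.27 ± 0.09 CPM in D6RA and 11.6 ± 2.8 CPM in D3RA (SD, n = 3 each).

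Markers of neural progenitors did not move as one: 12 of 27 were called higher and 9 lower, and the median log2 change was 0.21, against 0.06 over all genes. Their shares of calls were near the 37.2% and 32.1% of all genes tested. Dbx1, a homeobox factor of ventral spinal progenitors, had 1.36, 1.19 and 1.03 CPM in D6RA, against 32.3, 34.9 and 45.7 CPM in D3RA, a log2 change of -4.96 (SE 0.50, limma adjusted p = 2.1e-07). Zic1, a zinc finger factor of dorsal neural tissue, rose with a log2 change of 1.93. Sox2 was not called, at 187 ± 11.1 CPM in D6RA and 147 ± 12.1 CPM in D3RA (SD, n = 3 each, limma adjusted p = 0.0647), though it was called with voom weights (0.0414) and with the D6RA and D3RA libraries fitted alone (0.00298). Nes, the intermediate filament nestin, was not called either, at 469 ± 3.8 CPM in D6RA and 484 ± 19 CPM in D3RA. Pax6, a progenitor factor, was called lower at 101, 94.5 and 98.1 CPM in D6RA against 157, 141 and 148 CPM in D3RA (log2 change -0.61, limma adjusted p = 0.0357). That call was lost on leaving out any 1 of the 6 libraries (adjusted p of 0.0553 to 0.0917) and after thinning (0.0615), and the call was not kept.

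In the Notch pathway, through which a differentiating cell holds its neighbours in the progenitor state, 13 of 22 genes were called higher and 5 lower. The ligand Dll1 had 271, 284 and 282 CPM in D6RA, against 61.2, 58.6 and 73.1 CPM in D3RA. The receptor Notch1 had 336, 380 and 399 CPM in D6RA, against 108, 85.3 and 126 CPM in D3RA. The target Hes5 had 38.2, 40.9 and 41.3 CPM in D6RA, against 25.2, 20.8 and 16.9 CPM in D3RA, which did not overlap but was not called (limma adjusted p = 0.0843). The target Hes1 was called lower, at 33.7 ± 0.5 CPM in D6RA and 45.7 ± 0.74 CPM in D3RA (SD, n = 3 each). Dll4 and Notch4, which act in vessels, were lower with log2 changes of -1.48 and -0.83. The Dll4 call was lost without D6RA replicate 3 or D3RA replicate 1, at limma adjusted p of 0.0738 and 0.0561.

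Genes of glia were called higher in 11 of 20 cases and lower in 2, and 8 and 2 calls were kept. Nfia, a factor of the switch to gliogenesis, had 33.3, 35.6 and 32.7 CPM in D6RA, against 1.91, 1.3 and 2.28 CPM in D3RA, and Sox9, of the same switch, had 99, 105 and 105 CPM in D6RA, against 13.1, 16.6 and 18.7 CPM in D3RA. Both rose clear of the spread, with log2 changes of 4.13 and 2.68 (limma adjusted p of 1.36e-06 and 3.32e-10). Gfap, the filament of mature astrocytes, stayed under 1 CPM in all 6 libraries and was not called, but it was called higher without D3RA replicate 2 (log2 change 1.41, limma adjusted p = 0.0291). The glutamate transporters of astrocytes and radial glia went opposite ways: Slc1a3 was lower with a log2 change of -1.19 and Slc1a2 higher with one of 2.13. In the neural crest list 8 of 13 were called higher and 1 lower. Tfap2b and Tfap2a, factors of neural crest and of dorsal interneurons, both had log2 changes of 4.68, and Ets1, which also acts in endothelium, fell by 3.46.

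Axon guidance and adhesion genes were called higher in 30 of 40 cases and lower in 4. Dcc, the netrin receptor, had 306, 308 and 288 CPM in D6RA, against 39.9, 43.6 and 44.3 CPM in D3RA. L1cam, an axonal adhesion molecule, averaged 126 ± 1.8 CPM in D6RA and 12.9 ± 0.74 CPM in D3RA (SD, n = 3 each). Those called lower were Sema3d, a semaphorin, the netrin receptors Unc5a and Unc5b, and Nrp1, a receptor for semaphorins and VEGF, with log2 changes of -1.80, -1.66, -0.64 and -1.52.

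Genes that RA is known to induce were among those that fell furthest. Cyp26a1, an RA-degrading enzyme, had 0.132, 0.0819 and 0.0626 CPM in D6RA, against 18.2, 11.4 and 10 CPM in D3RA. No D6RA library came within a factor of 10 of a D3RA library. The log2 change was -6.93 (SE 0.25, limma adjusted p = 3.86e-12), the lowest by the naming rule, and the pooled CPM ratio was 0.00584 (95% interval 0.00249 to 0.0117). Cyp26a1 averaged 18.4 CPM in D6DMSO and 81.3 CPM in D3DMSO, so it fell with DMSO too. At day 3 it was higher with DMSO than with RA, where it averaged 13.2 CPM. Cyp26b1, a second such enzyme, had 9, 8.97 and 8.23 CPM in D6RA, against 149, 150 and 205 CPM in D3RA. Crabp2, which carries RA to its receptors, had 134, 116 and 130 CPM in D6RA, against 884, 934 and 934 CPM in D3RA. The RA receptor gene Rarb, itself induced by RA, had 120, 117 and 110 CPM in D6RA, against 273, 273 and 244 CPM in D3RA. These falls had log2 changes of -4.25, -2.86 and -1.18, and all were called and kept. The other genes with the lowest changes by the naming rule were Lars2, Csn3, Car3, Hapln1, F11r, Hk3, Tek, Tgm2, Fli1, Dbx1 and Fam198b, with log2 changes of -6.34 to -4.85, and the calls of all but Lars2 stood under every alternative run. Lars2, of the set treated here as ribosomal-RNA-like, had 6873 CPM in D3RA replicate 1, near the 6685 CPM of D6RA replicate 1. With replicate 1 as the only D3RA library its log2 change was -2.82. Tgm2, tissue transglutaminase, which RA is known to induce, had 0.265, 0.41 and 0.313 CPM in D6RA, against 12.8, 8.47 and 14.2 CPM in D3RA. Car3, a carbonic anhydrase, averaged 0.563 ± 0.17 CPM in D6RA and 31.3 ± 5.4 CPM in D3RA (SD, n = 3 each), and F11r, a tight junction adhesion molecule, averaged 1.14 ± 0.33 CPM in D6RA and 48.9 ± 7.9 CPM in D3RA. The groups were far apart for all 3. Car3 also fell with DMSO, with means of 7.79 CPM in D6DMSO and 62.6 CPM in D3DMSO. Cyp26b1, Crabp2, Tgm2 and F11r were instead higher in D6DMSO than in D3DMSO. In the RA pathway list 9 of 20 were called lower and 7 higher, beside 32.1% lower and 37.2% higher over all genes tested. The receptor Rara and the cofactor Meis2 were higher by 0.76 and 0.87 on the log2 scale.

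Among anterior Hox genes, paralogs 1 to 5, 1 of 14 was called higher and 3 lower, and the summed level was 882 ± 18.8 CPM in D6RA and 956 ± 52.6 CPM in D3RA (SD, n = 3 each). Posterior Hox genes, paralogs 6 to 13, summed to 771 ± 47.9 CPM in D6RA and 355 ± 26.3 CPM in D3RA, with 4 of 10 called higher and 2 lower. Hoxb9 had 292, 314 and 259 CPM in D6RA, against 46.5, 57.7 and 57.6 CPM in D3RA, and Hoxa6 had 59.3, 57.9 and 54 CPM in D6RA, against 9.56, 11.4 and 7.76 CPM in D3RA. Every D6RA library was several times every D3RA library for both genes. Hoxc6 and Hoxb8 were also called higher, and Hoxd8 and Hoxd9 lower, the last at 1.3 CPM or less in all 6 libraries and not called with replicate 1 as the only D3RA library (limma adjusted p = 0.0621). In the DMSO cultures 12 of 14 anterior and 9 of 10 posterior genes were called higher at D6DMSO than at D3DMSO, and the lists summed to 271 and 208 CPM in D6DMSO and to 113 and 34 CPM in D3DMSO.

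Endothelial and blood markers fell together. Of 27 measured, 22 were called lower and none higher, 5 (Eng, Mmrn2, Plvap, Robo4 and Sox7) did not pass the test, and all 22 calls were kept. The list summed to 71.8 ± 7.29 CPM in D6RA and 490.0 ± 58.4 CPM in D3RA (SD, n = 3 each). Tek, the angiopoietin receptor TIE2, had 0.695, 0.779 and 0.72 CPM in D6RA, against 27.3, 22.1 and 32 CPM in D3RA. Fli1, an ETS factor of endothelium and blood, had 0.828, 1.43 and 0.877 CPM in D6RA, against 28.6, 32.6 and 37.9 CPM in D3RA. Both were more than 10 times as high in each D3RA library as in any D6RA library, and their log2 changes were -5.17 (SE 0.34) and -5.00 (SE 0.31), with limma adjusted p of 1.61e-09 and 7.35e-10. Kdr, a VEGF receptor, had 8.11, 10.8 and 7.04 CPM in D6RA, against 66.8, 53.7 and 78.6 CPM in D3RA. Cdh5, the cadherin of endothelial junctions, had 4.8, 6.88 and 5.17 CPM in D6RA, against 33.5, 30.3 and 42.5 CPM in D3RA. Pecam1, CD31, had 4.47, 5.7 and 4.2 CPM in D6RA, against 26, 20.5 and 21.5 CPM in D3RA. The defining markers were thus measured in D6RA as well, at lower levels, and their part in the other falls was not tested. Of the 22 lower genes 13 had a promoter in the RefSeq table. Of the letters that ETS factors such as Fli1 are known to bind, AGGAAG was in 8 of these (61.5%, against 31.8% of all promoters) and CCGGAAG in none (against 17.7%). An RE1-like match was in 1, that of Egfl7 (7.69%, against 2.15%), CAGATG in 3 (23.1%, against 10.8%) and CAGCTG in 1 (7.69%, against 14.9%).

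The DMSO cultures moved the other way. There, 25 of the 27 endothelial and blood markers were called higher at D6DMSO than at D3DMSO, and the list summed to 460.0 ± 38.5 CPM in D6DMSO and 154 ± 14.3 CPM in D3DMSO (SD, n = 3 each). The median log2 change of D6DMSO over D3DMSO was 2.05 in the list and 0.01 over all genes. The difference between the changes, D6RA over D3RA minus D6DMSO over D3DMSO, was tested as an interaction. It holds the change with DMSO as well as that with RA, so it is not an effect of RA alone. A shift of day 6 against day 3 that both treatments share drops out, but the shift from depth was not the same in both. A gene with 0 counts has log2 values of 2.54 to 4.87 in D3RA and 1.00 to 1.39 in D6RA. With DMSO the ranges are 3.14 to 3.71 in D3DMSO and 1.42 to 1.49 in D6DMSO. The interaction was called above 0 for 3739 genes, 25.4% of those tested, and below 0 for 3401, 23.1%. After thinning to the smallest library these counts were 2494 and 2289, and the list counts below are not limited to kept calls. In the endothelial list the interaction was below 0 for 25 of 27. In the channel list it was above 0 for 23 and below 0 for 2 of 31, in the vesicle list above 0 for 22 of 27 and below 0 for none, and in the cytoskeletal list above 0 for 17 and below 0 for 1 of 21. Of all genes, 792 were called higher with RA and lower with DMSO as well as in the interaction, and 682 the reverse.

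**Figure D3:**
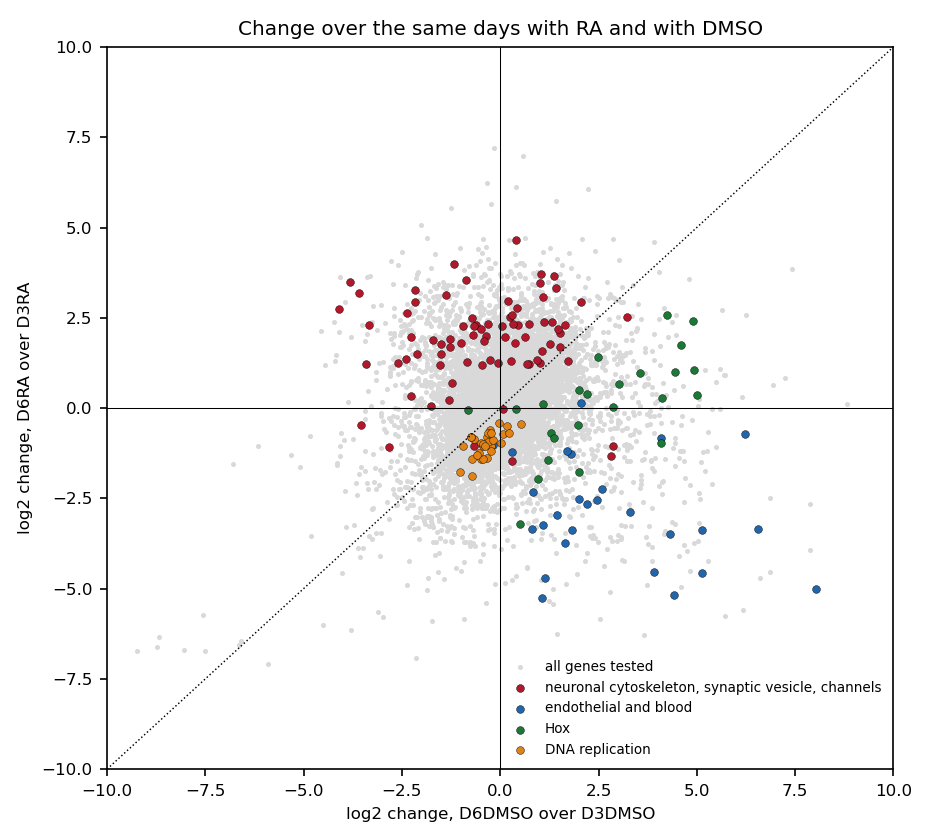
Each point is a gene, with the log2 change of D6DMSO over D3DMSO across and of D6RA over D3RA up, and the dotted line marks equal changes. Cytoskeletal, vesicle and channel genes lie mostly above both the line and 0, endothelial and blood markers lie low and to the right, Hox genes lie to the right of the line, and DNA replication genes lie slightly below 0.

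The genes of the highest interaction with RA included Enpp2, Sez6, Rab3c, Scrt2, Dner, Stk32b and Trim67, with log2 differences of 6.84 to 7.70. Enpp2, autotaxin, which makes lysophosphatidic acid, had 12.4, 13.6 and 12.1 CPM in D6RA, against 0.546, 0.977 and 1.37 CPM in D3RA, while it averaged 7.97 CPM in D6DMSO and 143 CPM in D3DMSO. Dner, a Notch ligand of neurons, averaged 127 ± 2.7 CPM in D6RA and 16.6 ± 1.8 CPM in D3RA (SD, n = 3 each), while it averaged 0.274 CPM in D6DMSO and 4.39 CPM in D3DMSO. At the other end were Fli1, Hapln1, Csn3, Emcn, Cd34, Tek, Dbx1 and Gimap6, with log2 differences of -13.03 to -9.52. Hapln1, a link protein of the hyaluronan matrix, had 1.32, 1.97 and 1.28 CPM in D6RA, against 68.3, 68.4 and 82.7 CPM in D3RA, while it averaged 103 CPM in D6DMSO and 1.52 CPM in D3DMSO. Fli1, Emcn and Dbx1 had no counts in D3DMSO, so the size of their difference depends on the count added before the log.

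**Figure D4:**
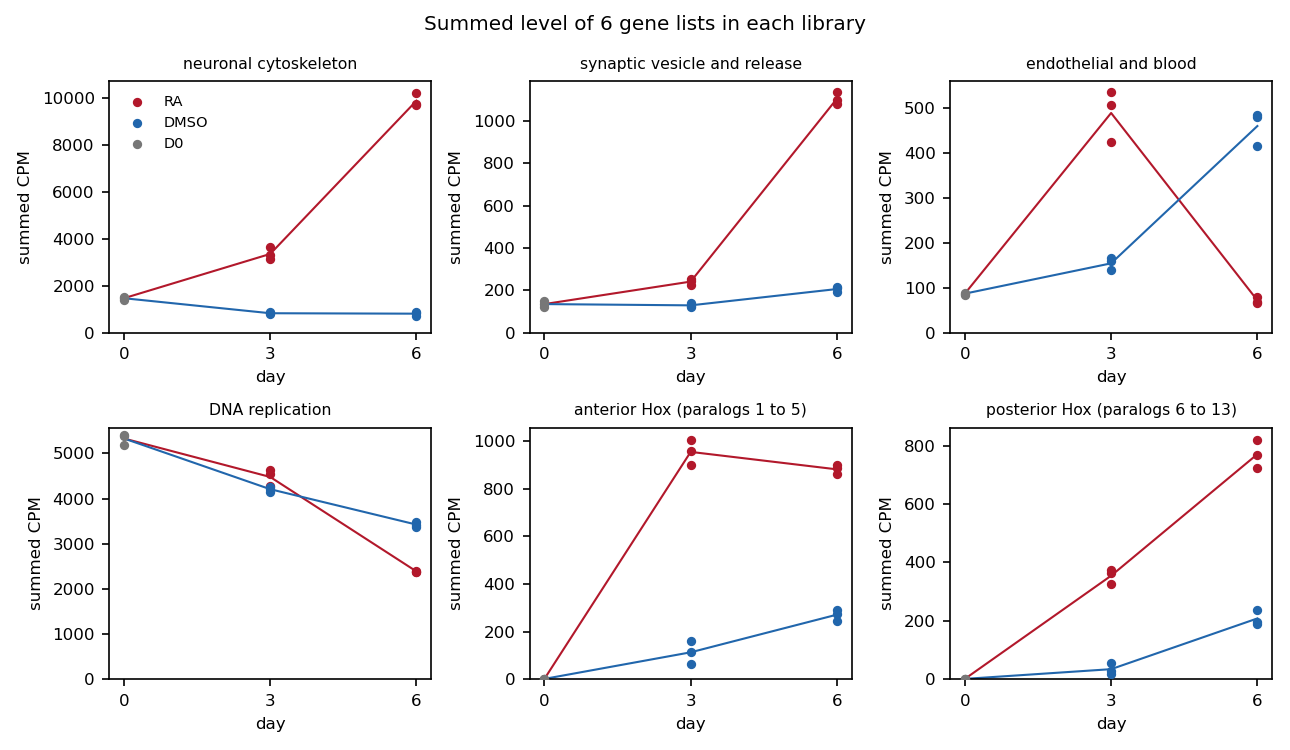
Summed CPM of 6 gene lists in each library by day, for RA, DMSO and the shared D0 cells, with lines through the group means. The endothelial and blood sum was high in D3RA and low in D6RA while it was higher in D6DMSO than in D3DMSO, and the cytoskeletal and vesicle sums were higher in D6RA than in any other group.

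Other non-neural lists held more lower than higher calls. Mesenchyme and smooth muscle genes were called lower in 12 of 19 cases and higher in 3, endoderm genes lower in 7 of 11 and higher in 1, and epithelial genes lower in 12 of 17 and higher in 1, with 11, 5 and 7 of the lower calls kept. The sums did not all go the same way as the calls: the mesenchyme and smooth muscle list summed to 378 ± 13.6 CPM in D6RA and 343 ± 61.9 CPM in D3RA, the endoderm list to 275 ± 17.1 CPM in D6RA and 329 ± 29 CPM in D3RA, and the epithelial list to 14.4 ± 1.07 CPM in D6RA and 32.5 ± 3.02 CPM in D3RA (SD, n = 3 each). Acta2, smooth muscle actin, had 1.22, 1.88 and 1.6 CPM in D6RA, against 26, 30.3 and 29.7 CPM in D3RA. Ocln, the tight junction protein occludin, had 0.166, 0.0819 and 0.157 CPM in D6RA, against 6.01, 5.54 and 6.85 CPM in D3RA. Both had groups far apart, with log2 changes of -4.20 and -5.41. Fn1, fibronectin, made up most of the mean mesenchyme and smooth muscle sum in both groups. It was called higher, at 319 ± 10.7 CPM in D6RA and 183 ± 49.4 CPM in D3RA (SD, n = 3 each, limma adjusted p = 0.0206), but not without D6RA replicate 3, D3RA replicate 1 or D3RA replicate 2 (0.0504, 0.084 and 0.0623). Cardiac and skeletal muscle genes were called lower in 5 of 13 cases and higher in 3, and of the lower calls only 1, that of Actc1, was kept. That list summed to 27.1 ± 2.41 CPM in D6RA and 15.5 ± 2.12 CPM in D3RA. Only 2 microglia and macrophage markers were measured, and their sum was 5.38 ± 0.528 CPM in D6RA and 3.7 ± 0.819 CPM in D3RA.

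Pluripotency genes were called lower in 16 of 21 cases and higher in none, but only 8 of those calls were kept. The list summed to 26.8 ± 0.468 CPM in D6RA and 78.9 ± 2.35 CPM in D3RA (SD, n = 3 each), against 5574 CPM in D0. Sall4, a factor of stem cells, had 6.98, 7.42 and 8.7 CPM in D6RA, against 28.9, 26.7 and 24.2 CPM in D3RA. Pou5f1, Oct4, had 0.0993, 0.246 and 0 CPM in D6RA, against 0.273, 0.977 and 4.11 CPM in D3RA. The highest D3RA value came from the shallowest library, and with replicate 1 as the only D3RA library the log2 change of -3.89 was -2.02 and not called (limma adjusted p = 0.0875). With voom weights it was -3.29 and not called (0.114). Nanog, at or under 0.273 CPM in all 6 libraries, was called lower but not with the proportional added count (log2 change -0.01, limma adjusted p = 0.974).

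Genes of the dividing cell fell. All 30 DNA replication genes were called lower and kept, with a median log2 change of -0.97, and 22 of 25 mitotic genes were called lower and none higher, with a median of -0.86. The replication helicase subunit Mcm5 had 135, 137 and 138 CPM in D6RA, against 305, 271 and 246 CPM in D3RA. Top2a, the topoisomerase of dividing cells, had 870.0, 843 and 858 CPM in D6RA, against 1771, 1902 and 1595 CPM in D3RA. Gmnn, geminin, which blocks re-replication, had 25.6, 25 and 25.8 CPM in D6RA, against 104, 82.7 and 97.7 CPM in D3RA. Every D6RA library was below every D3RA library for all of these, and none was near 0. The replication list summed to 2384 ± 11.8 CPM in D6RA and 4478 ± 181 CPM in D3RA, and to 3422 ± 55.8 CPM in D6DMSO and 4207 ± 52.9 CPM in D3DMSO (SD, n = 3 each). With DMSO 24 of the 30 were called lower as well and 2 higher, and the interaction was below 0 for 25 of 30.

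Cyclins and cell cycle inhibitors were mixed, with 11 of 24 called higher and 7 lower, near the 37.2% and 32.1% of all genes tested. The G1/S cyclin Ccne1 averaged 14.3 ± 0.58 CPM in D6RA and 42.5 ± 1.3 CPM in D3RA (SD, n = 3 each). Ccnd1, the G1 cyclin, averaged 122 ± 11.5 CPM in D6RA and 54 ± 5.4 CPM in D3RA. Cdk5r1, the activator p35 of the neuronal kinase Cdk5, averaged 118 ± 2.7 CPM in D6RA and 18.7 ± 1.2 CPM in D3RA and had the highest log2 change of the list, 2.65. Cytosolic ribosomal protein genes were called lower in 27 of 30 cases and higher in none, and 23 of these lower calls were kept. With DMSO 19 of 30 were called lower and none higher. The list summed to 9368 ± 25.5 CPM in D6RA and 18839 ± 1006 CPM in D3RA (SD, n = 3 each). The mitochondrial share and depth moved with the day in the same libraries, and their part in this fall was not tested.

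Mir17hg, the host transcript of the miR-17-92 cluster of growth-promoting microRNAs, was lower, at 14.6, 15 and 15.5 CPM in D6RA against 46.3, 44 and 39.7 CPM in D3RA. The groups did not overlap, and the log2 change was -1.53 (SE 0.12, limma adjusted p = 7.7e-09). Mature microRNAs were not measured, and they are printed from RefSeq (GRCm38.p6, chromosome 14) to show which seeds, bases 2 to 8 in capitals, the host transcript carries:
mmu-miR-17-5p: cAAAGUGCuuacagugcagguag
mmu-miR-20a-5p: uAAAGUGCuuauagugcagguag
mmu-miR-18a-5p: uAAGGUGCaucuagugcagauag
mmu-miR-19a-3p: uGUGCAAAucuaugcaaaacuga
mmu-miR-19b-3p: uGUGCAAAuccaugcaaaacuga
mmu-miR-92a-3p: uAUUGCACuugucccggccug
miR-17-5p and miR-20a-5p share the seed AAAGUGC, miR-19a-3p and miR-19b-3p share GUGCAAA, and the other 2 have seeds of their own.

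Of the 12 measured microRNA hosts and imprinted RNAs, 4 were called higher and 5 lower, beside 37.2% higher and 32.1% lower over all genes tested. H19, an imprinted RNA of fetal tissue, had 26.8, 40.0 and 26.6 CPM in D6RA, against 289, 263 and 289 CPM in D3RA, and its neighbour Igf2 averaged 21.7 ± 3.6 CPM in D6RA and 123 ± 6.4 CPM in D3RA (SD, n = 3 each). Meg3, an imprinted RNA of the nervous system, had 241, 259 and 238 CPM in D6RA, against 30.8, 33.9 and 40.7 CPM in D3RA. H19 and Meg3 thus went in opposite directions with RA, with log2 changes of -3.19 and 2.81. With DMSO H19 averaged 1140.0 CPM in D6DMSO and 35 CPM in D3DMSO, and Meg3 413 and 129 CPM. Malat1, a nuclear RNA, averaged 7793 ± 239 CPM in D6RA and 2200.0 ± 33.4 CPM in D3RA, and was also higher in D6DMSO than in D3DMSO, at 6891 and 2424 CPM.

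The series examined heterochromatin at the nuclear edge, and 2 lists cover genes of that machinery. Lamina and nuclear envelope genes were called higher in 9 of 16 cases and lower in 5. Lmnb1, lamin B1, had 246, 266 and 252 CPM in D6RA, against 172, 161 and 218 CPM in D3RA (log2 change 0.48, SE 0.09, limma adjusted p = 1.07e-04). Lbr, which tethers heterochromatin to the envelope, was lower with a log2 change of -0.79, and Lmna, lamin A/C, was not called at 6.4 ± 0.65 CPM in D6RA and 5.23 ± 1 CPM in D3RA (SD, n = 3 each). Among genes that write, read or erase H3K9 methylation, 14 of 23 were called higher and 5 lower. Phf2, a demethylase-family protein, had the highest log2 change, 2.11, while the methyltransferase Suv39h1 was lower, at 41 ± 2 CPM in D6RA and 61.7 ± 5.6 CPM in D3RA, and Ehmt1, which makes H3K9me2, was higher, at 231 ± 4.6 CPM in D6RA and 174 ± 8.9 CPM in D3RA.

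BAF chromatin remodelling subunits, which are known to be exchanged when progenitors become neurons, were called higher in 16 of 24 cases and lower in 3. With DMSO 14 of the 24 were called higher as well and 4 lower, and the interaction was above 0 for 7 and below 0 for 3. The neuronal subunit Actl6b had 16.9, 16.3 and 17.6 CPM in D6RA, against 2.82, 4.56 and 5.48 CPM in D3RA, and the progenitor form Actl6a had 89.9, 92.1 and 96.2 CPM in D6RA, against 184, 168 and 172 CPM in D3RA. The neuronal subunit Ss18l1 averaged 58.8 ± 2.1 CPM in D6RA and 14.9 ± 2.3 CPM in D3RA (SD, n = 3 each), and its progenitor form Ss18 averaged 69.6 ± 0.74 CPM in D6RA and 104 ± 10.0 CPM in D3RA. In both pairs the neuronal form was higher and the progenitor form lower, with log2 changes of 1.99 and -0.92 for the first pair and 1.98 and -0.57 for the second. The interaction was also called for all 4, above 0 for Actl6b and Ss18l1 (2.86 and 0.77) and below 0 for Actl6a and Ss18 (-0.28 and -0.26), but none of these 4 interaction calls was kept. Actl6b had no counts in D3DMSO and at most 0.0439 CPM in D6DMSO, so the size of its difference depends on the count added before the log.

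Of 26 glycolysis and hypoxia genes, 13 were called lower and 5 higher. Slc2a1, the glucose transporter GLUT1, had 78, 79.7 and 81.2 CPM in D6RA, against 503, 559 and 513 CPM in D3RA, and Ldha, lactate dehydrogenase A, averaged 63 ± 11.4 CPM in D6RA and 207 ± 12.3 CPM in D3RA (SD, n = 3 each). With DMSO 16 of the 26 were called lower and 4 higher. Immediate early and stress genes were called higher in 5 of 20 cases and lower in 6, shares below the 37.2% and 32.1% of all genes tested. Chac1, Trib3 and Ddit3, of the response to amino acid and endoplasmic reticulum stress, had log2 changes of 3.79, 2.82 and 2.06, and Chac1 had 86.5, 81.1 and 85.3 CPM in D6RA, against 5.28, 4.89 and 8.22 CPM in D3RA. Fos, an immediate early gene, was lower with a log2 change of -1.64. Growth factors and neurotrophins were called higher in 13 of 30 cases and lower in 10, near the shares of all genes tested, with 11 and 4 kept. The ends of that list were Fgf15, with a log2 change of 3.96, and Ntf3, with one of -2.82.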

How the data were processed

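The members and gene lists were chosen with earlier results of these data known. RNA was measured in 15 libraries, 3 biological replicates in each of 5 groups, from total RNA depleted of ribosomal RNA with a stranded kit and sequenced single end, per the labels. The deposited table holds log2 values per Ensembl gene, and the tools listed in the submitters' processing notes are Trimmomatic 0.32, STAR 2.6.0c, featureCounts, edgeR and limma, beside Bowtie2 2.2.9, SAMtools 0.1.19 and FastQC 0.11.2, with the mm9 build. Which of them made the table is not given in the sources used here. Each value, with the log2 undone, equals a library constant times a whole count plus 0.5, for 100% of values within 0.05, so counts and CPM were recovered, with library size taken from that constant. Of 14717 genes, 14228 matched a symbol, and 11 mitochondrial genes were left out. The 18 chromatin samples were not used.

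The deposited log2 values were fitted with limma 3.58.1 (R 4.3.3), with variance trend and 1 coefficient per group over the 15 libraries (10 residual degrees of freedom). Genes needed 1 CPM in 3 libraries, which removed none. On simulated data for D6RA against D3RA (14706 genes, 200 changed), 4-fold rises and falls were recovered in 100% of 50 genes each, 2-fold rises in 88% and 2-fold falls in 82%, with 18 false calls. The changed genes had a mean of at least 1 CPM, and all genes had the same dispersion. The ribosomal-RNA-like difference between D3RA libraries was not simulated, so these figures are not error rates of the real comparison. Named genes were a panel of 8, the 12 highest and 12 lowest called genes at 10 CPM or more whose groups did not overlap, the 3 highest and 3 lowest called members of each list at 1 CPM or more, and the 8 highest and 8 lowest interaction genes. Others named, such as Neurod1, Hes5 or Mir17hg, were chosen for their role after their values were seen. RefSeq promoters matched 10355 tested genes. Alternatives were other scalings, added counts, thinning, weights, filters, groups fitted, a replicate block, leaving out each library and, chosen after seeing the data, leaving out D3RA replicates 2 and 3 together. Some items are not reported here.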

Additional observations from a re-analysis of the deposited data

Results flagged for a closer look

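The change over days 3 to 6 differed between RA and DMSO cultures, by the interaction test in limma, above 0 for 3739 genes and below 0 for 3401. Genes among those with the highest log2 difference, D6RA over D3RA minus D6DMSO over D3DMSO, were Enpp2 (7.70), Sez6 (7.37), Rab3c (7.30), Scrt2 (7.03), Dner (6.89), Stk32b (6.85) and Trim67 (6.84). These 7 were all higher in D6RA than in D3RA, and their D6DMSO means were below their D3DMSO means. For Sez6 those means were nearly equal, at 0.602 and 0.62 CPM, and it was not called with DMSO (limma adjusted p = 0.733). The 8 with the lowest were Fli1 (-13.03), Hapln1 (-11.77), Csn3 (-9.97), Emcn (-9.91), Cd34 (-9.69), Tek (-9.58), Dbx1 (-9.57) and Gimap6 (-9.52), and all 8 were higher in D6DMSO than in D3DMSO.

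Signal also lay in genes that were not tested. The 11 genes of the mitochondrial genome took at least 41.6% of all counts in each D6RA library, and no count in the D3RA, D3DMSO and D0 libraries.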

How the results depend on the processing

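The 6 counts of calls stayed within 1.5 times their value under every alternative that was run. Genes higher in D6RA numbered 4375 to 5676 (5466 as reported) and lower ones 3617 to 5415 (4716), with the fewest after thinning to the smallest library. Leaving out 1 library gave 5009 to 5331 higher and 4358 to 4704 lower. Quantile normalization gave 4668 higher and 5415 lower, so that lower calls were the more numerous. Interaction counts ran from 2494 to 3913 above 0 (3739) and from 2289 to 3882 below 0 (3401). No pairing by replicate number was seen: deviations of same-numbered D6RA and D3RA libraries correlated at -0.25, -0.23 and 0.00 over 9915 genes. This check cannot exclude pairing, because D3RA replicate 1 differs from replicates 2 and 3 in depth and ribosomal-RNA-like share. A replicate block gave 5510 higher and 4742 lower. Of 250 results followed, 36 changed call or direction under at least 1 alternative. The log2 change reversed for Actn2 after thinning (0.41), for Lmna after thinning (-0.09) and for Gfap without D3RA replicate 1 (-0.12, though 1.41 without D3RA replicate 2); the cause was not tested. Keeping only the deepest D3RA library, chosen after seeing the data, lost or reversed 22, with that library assumed to vary like the other groups, and thinning 16. Sox2 was called with the replicate block (adjusted p = 0.0375). Depth limits D3RA most: 1 count in replicate 3 is 0.457 CPM, so differences below about 1 CPM rest on few reads.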
